A study of Mus musculus with 2 samples.

Results

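The syndecans and glypicans studied here are 9 genes, the 4 syndecan genes Sdc1, Sdc2, Sdc3 and Sdc4 and the 5 glypican genes Gpc1, Gpc2, Gpc3, Gpc4 and Gpc6, out of 18193 genes named on the arrays. They were chosen by gene symbol, with earlier results of these data known. Every probe set that the platform annotation gives to 1 of these genes alone was taken, 23 probe sets in all. A further probe set, annotated to Gpc2 together with the sulphotransferase gene Gal3st4, was left out and was dim on both arrays (4.95 in the control and 4.84 with Wnt3a on the log2 scale). Expression data of primary myoblasts, the dividing precursors of muscle fibres, were used. The cells came from newborn Sv129 mice and grew on laminin and collagen. Both groups were then held for 4 hours in DMEM with 2% horse serum, the control group without further addition and the Wnt3a group with Wnt3a at 100 ng/ml, a secreted ligand that acts through Frizzled and LRP receptors and stabilises β-catenin. Each group is 1 Affymetrix 3′ array, so no difference has a replicate check or a p-value, and the number of arrays limits the precision. The labels do not say how many animals or cultures went into an array.

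Syndecans and glypicans are the main families of cell-surface heparan sulphate proteoglycans. A syndecan is a transmembrane protein with a short cytoplasmic tail, while a glypican is held in the outer membrane leaflet by a glycosylphosphatidylinositol anchor. Their long, sulphated sugar chains bind growth factors, among them FGFs, HGF and Wnt proteins, and pass them to their signalling receptors. In muscle, Sdc3 and Sdc4 are known as surface markers of satellite cells, the resident stem cells, and Sdc4 is also a component of focal adhesions. Glypicans can keep lipid-modified Wnt ligands soluble and near the cell surface.

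Levels are given as log2(intensity + 1) for 1 probe set on 1 array, and differences as Wnt3a minus control on that scale. A probe set was treated as measured where it reached 6 (an intensity of 63) on at least 1 array, which is a brightness limit chosen for this comparison and says nothing about detection. By this floor 20 of the 23 probe sets and 8 of the 9 genes were measured, and no member probe set crossed the floor between the arrays. Each gene is represented by its brightest probe set, and the others stand beside it. Probe sets differ in how brightly they report a given amount of RNA, so the members' levels are compared between arrays and not with each other.

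Among the 8 measured genes, Sdc2 was higher with Wnt3a and Sdc4 lower, each by about 1.5-fold, and the other 6 differed by at most 1.13-fold. Sdc2, a syndecan typical of mesenchymal cells, was 1.56-fold higher, and Sdc4, the focal adhesion syndecan, was 1.51-fold lower. The 6 others lay between -0.10 (Gpc6) and 0.17 (Gpc4). Of all 11397 measured genes, 0.886% were higher by 1.5-fold or more and 0.342% were lower by as much, against 1 of 8 members in each direction. No member reached 2-fold, which 0.316% of measured genes did in either direction. The members' median difference was 0.035, with 4 genes higher and 4 lower, and that of all measured genes was -0.0057.

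**Figure D1:**
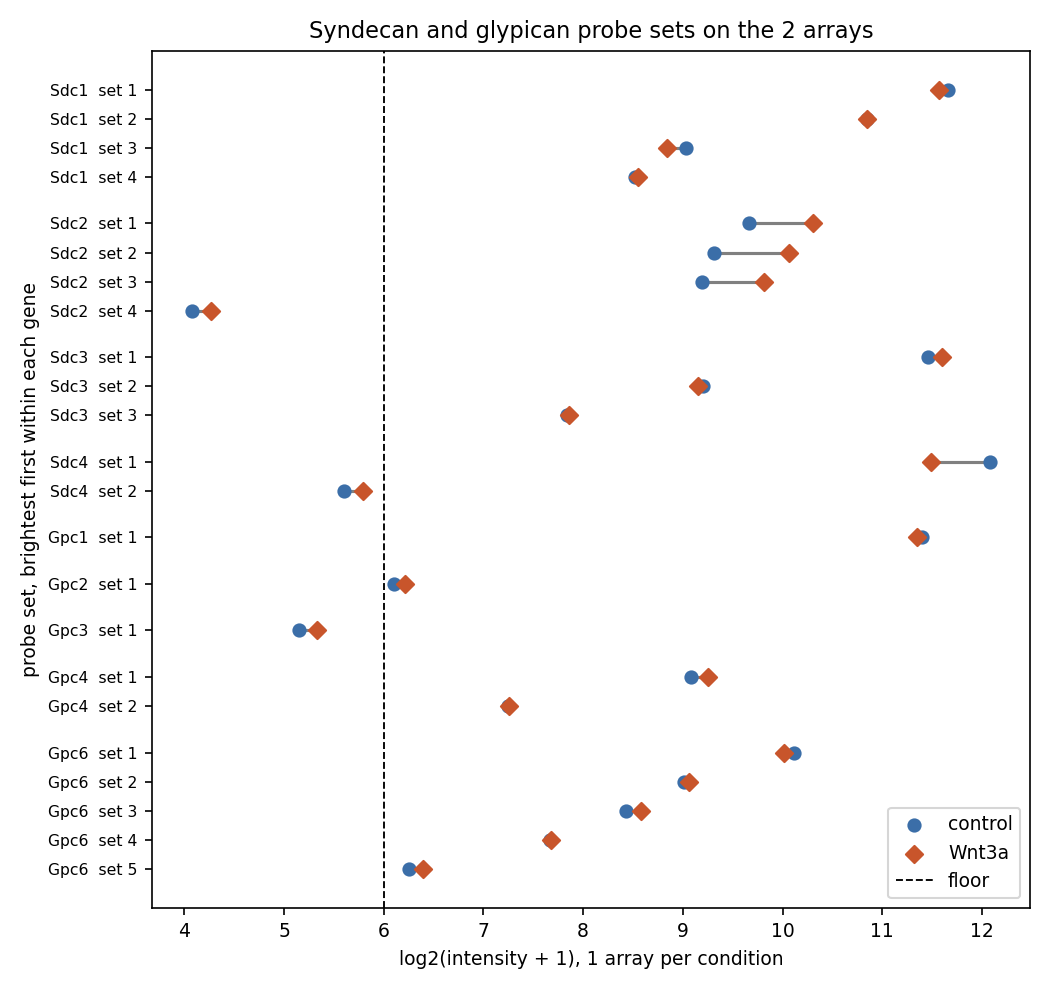
Log2(intensity + 1) of all 23 syndecan and glypican probe sets (rows, brightest first within a gene) on the control array (circles) and the Wnt3a array (diamonds), with a dashed line at the floor of 6. The 3 bright sets of Sdc2 lie to the right with Wnt3a, the bright set of Sdc4 lies to the left, and the markers of most other rows nearly coincide.

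The finding on Sdc2 rested on 3 bright probe sets that gave like values. The brightest (1417011_at) was at 9.66 in the control and 10.30 with Wnt3a, a difference of 0.64. The set 1417012_at was at 9.31 and 10.06, a difference of 0.75. The set 1448545_at was at 9.19 and 9.81, a difference of 0.62. In intensities these were 807 and 1261, 635 and 1070, and 583 and 898, so that on each of them the Wnt3a array was the brighter. The SD of the 3 differences was 0.069, against a pooled SD of 0.12 between probe sets of the same gene over 5084 genes. All 3 are annotated to the same source sequence and were read from the same pair of arrays, so they repeat the probe measurement and neither the culture nor the hybridisation. The fourth Sdc2 set (1431474_at) was far below the floor on both arrays, at 4.08 and 4.26, a difference of 0.19. The largest of these values, 0.75, is 1.68-fold.

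Sdc2 ranked 82nd from the top of the 11397 measured genes by difference. Of the 1978 measured genes within 0.5 log2 units of its brightness, itself included, 7 had a larger positive difference. The central 95% of those genes lay between -0.29 and 0.25. At the level of probe sets, 0.774% of the 19760 at the floor were higher by 1.5-fold or more and 0.42% were lower by as much. Of the 20 member sets at the floor 3 were higher by that much, all of Sdc2, and 1 was lower, of Sdc4.

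Sdc4 was the member with the opposite sign, and its value came from 1 bright probe set. That set (1448793_a_at) was at 12.08 in the control and 11.49 with Wnt3a, intensities of 4323 and 2866, a difference of -0.59. Its other set (1417654_at), annotated to the same source sequence, was below the floor on both arrays, at 5.60 and 5.79, and differed by 0.18 in the other direction. The call at 1.5-fold is therefore without a repeat by a second bright probe set, and the mean over both sets was -0.20. The difference of -0.59 lies just past the threshold (0.585 on the log2 scale), and with a loess trend on brightness removed it was -0.580, short of it. By difference, Sdc4 ranked 38th from the bottom of the measured genes, and among the 850 of like brightness none was lower. The central 95% of those 850 lay between -0.24 and 0.26.

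**Figure D2:**
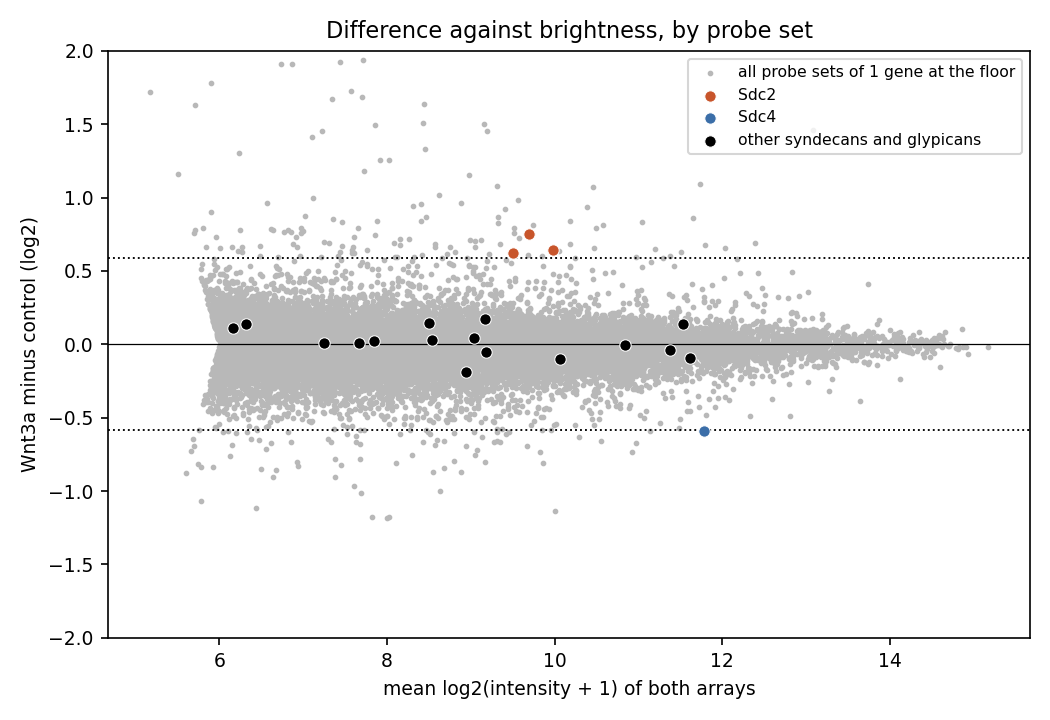
Wnt3a minus control (log2) against mean brightness for the 19760 probe sets of 1 gene at the floor (grey), with Sdc2 in orange, Sdc4 in blue, the other members in black and dotted lines at 1.5-fold. The 3 Sdc2 sets lie above the upper line and the Sdc4 set on the lower one, while the 16 black points stay between -0.19 and 0.17. A further 22 sets lie beyond the plotted range of 2 in either direction.

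The other syndecans showed small differences without a common sign. Sdc1, the syndecan of epithelia and plasma cells that is also present in dividing myoblasts, was at 11.66 and 11.57 on its brightest set. Its remaining sets differed by -0.0024, -0.19 and 0.03, so that the 4 sets spanned -0.19 to 0.03. Sdc3, which is prominent in developing nerve and muscle, was at 11.46 and 11.60 on its brightest set, a difference of 0.14. On its dimmer sets Sdc3 differed by -0.05 (9.20 and 9.15) and 0.02 (7.83 and 7.85). The SD between probe sets was 0.097 for Sdc1 and 0.096 for Sdc3, and for both genes sets of either sign were found.

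Of the syndecans, RefSeq promoter sequence was at hand for Sdc4, Sdc1 and Sdc3, and not for Sdc2, the gene that was higher with Wnt3a. The sequence is printed as a description. A link between these letters and the difference of Sdc4 was not tested. Each line gives the 250 bases before the annotated start, 5′ to 3′ on the gene's strand, from RefSeq on GRCm38.p6. Capitals mark each GC box (GGGCGG, either strand), to which Sp1-type factors bind, and each TATA-type match (TATAA, either strand, which can overlap itself). The Sdc4 stretch is chr2:164443189-164443438, minus strand. The Sdc1 stretch is chr12:8771146-8771395, plus strand. The Sdc3 stretch is chr4:130792287-130792536, plus strand.
Sdc4: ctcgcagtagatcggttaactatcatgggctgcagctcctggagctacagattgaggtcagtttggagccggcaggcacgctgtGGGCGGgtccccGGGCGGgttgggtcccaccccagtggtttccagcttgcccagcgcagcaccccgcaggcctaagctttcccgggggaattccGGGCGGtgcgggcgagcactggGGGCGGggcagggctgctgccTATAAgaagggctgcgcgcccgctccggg
Sdc1: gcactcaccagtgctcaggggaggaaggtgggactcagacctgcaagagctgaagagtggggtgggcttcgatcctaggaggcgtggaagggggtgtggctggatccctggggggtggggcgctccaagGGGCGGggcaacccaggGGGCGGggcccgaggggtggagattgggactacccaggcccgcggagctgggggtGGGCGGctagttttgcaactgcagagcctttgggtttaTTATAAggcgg
Sdc3: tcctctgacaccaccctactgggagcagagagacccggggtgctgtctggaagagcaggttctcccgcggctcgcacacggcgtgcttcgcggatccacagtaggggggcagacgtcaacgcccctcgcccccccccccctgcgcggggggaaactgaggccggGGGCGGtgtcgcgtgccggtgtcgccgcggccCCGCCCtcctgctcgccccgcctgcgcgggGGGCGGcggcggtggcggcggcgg

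All 3 stretches are rich in G and C, at 68.0% for Sdc4, 66.0% for Sdc1 and 76.4% for Sdc3, where the median of 32851 RefSeq promoters of the same length was 52.4%. Sdc4 holds 4 GC boxes, Sdc1 3 and Sdc3 3. A GC box was found in 32.7% of all promoters. The TATA-type letters begin 29 bases before the start in Sdc4 and 11 bases before it in Sdc1, and do not occur in the Sdc3 stretch. They occur in 22.8% of all promoters. A form of the core to which TCF/LEF factors, the partners of β-catenin, bind (CTTTGA, either strand) is in none of the 3. Of all promoters 13.8% hold it, and other forms of the core were not searched. E-boxes (CANNTG, the same on both strands, the site of MyoD-type factors) were found once in Sdc1 and not in Sdc4 or Sdc3, against 66.2% of all promoters. Of the glypicans, Gpc2, Gpc3 and Gpc4 had an entry, each with at least 1 GC box and none with a TATA-type match or this form of the TCF/LEF core. A match to these short words is a description of the letters, and no match says nothing about more distant sequence.

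No glypican differed by 1.5-fold, a size that 0.886% of all measured genes reached on the high side and 0.342% on the low side. The largest difference on the 9 glypican probe sets at the floor was 0.17. Of those 9 sets 7 were higher with Wnt3a and 2 lower, from -0.10 to 0.17, but 5 of the 9 belong to Gpc6. By gene, on the brightest set, 2 of the 4 measured glypicans were higher and 2 lower. Among all measured genes 47.3% were higher. Gpc1, the glypican of adult brain and muscle, was at 11.39 in the control and 11.35 with Wnt3a on its only set. Gpc4, which takes part in Wnt and FGF signalling in embryos, was at 9.08 and 9.25 (0.17), and at 7.25 on both arrays on its dimmer set (0.0087). The SD between the differences of the Gpc4 sets was 0.12. Gpc6, a relative of Gpc4 known for roles in skeletal growth, had 5 sets at the floor. Its brightest was at 10.12 and 10.02 (-0.10), while the other Gpc6 sets differed by 0.05, 0.14, 0.0096 and 0.14, so that the mean over all 5 was 0.05, with the opposite sign to the brightest. Gpc2, a glypican of developing neurons, was barely above the floor at 6.11 and 6.22 (0.11). Gpc3, a regulator of Hedgehog signalling and body growth, was below the floor on both arrays at 5.15 and 5.33, and its difference of 0.18 is given as a value only.

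The differences of Sdc2 and Sdc4 lay 1.24 apart on the log2 scale, a gap that a shift common to all probe sets leaves as it is. The size of each difference does move with such a shift. All 42 spike-in control probe sets were lower on the Wnt3a array, with a median difference of -0.19. Scaling on these controls would add 0.19 to every difference. Sdc2 would then stand at 0.83 and Sdc4 at -0.40, short of 1.5-fold, and Sdc1, Gpc1 and Gpc6 would change from negative to positive (0.10, 0.15 and 0.09).

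The enzymes that build and modify the sugar chains carried by these core proteins mostly differed little. Past 1.5-fold were 0.886% of all measured genes on the high side and 0.342% on the low side. Of the 11 listed genes for the linker and for chain polymerisation 10 were measured, 4 higher and 6 lower. None of them differed by 1.5-fold, and their median was -0.0095. Their largest differences were Extl1 (-0.20, on its only set, near the floor at 6.67 and 6.47) and B3galt6 (-0.11, its only set at the floor). Next were Ext1 (-0.09), which encodes a subunit of the heparan sulphate polymerase, and B3gat3 (0.08), the enzyme that completes the linker. Of the 20 genes of sulphation and epimerisation 12 were measured, 8 higher and 4 lower, with a median of 0.039. The 8 include Hs3st1, which reached the floor only on the Wnt3a array, so the floor itself fixed its sign. With the floor set on the mean of both arrays the median was 0.013. Hs3st1, a 3-O-sulphotransferase that makes the antithrombin-binding form of the chain, was at 5.41 in the control, under the floor, and at 6.20 with Wnt3a, at least 1.15-fold higher against the floor and 1.73-fold by the measured values. Slc26a2, the transporter that brings sulphate into the cell, was at 7.67 and 8.25, 1.49-fold higher, with 0.37 to 0.57 over its 3 sets. Hs3st3b1 differed by 0.29 (from -0.27 to 0.29 over 3 sets) and Hs6st1, a 6-O-sulphotransferase, by -0.22.

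Genes that trim, shed or release the proteoglycans also stayed within 1.5-fold, as did all measured genes but 0.886% (higher) and 0.342% (lower). Of 15 listed, 10 were measured, 6 higher and 4 lower, with a median of 0.072. The 6 include Gpld1, which reached the floor only on the Wnt3a array. Gpld1, a phospholipase that cuts glycosylphosphatidylinositol anchors, crossed the floor (5.88 to 6.15, at least 1.11-fold higher). Adamts1 (-0.25), Mmp14 (0.22, from 0.02 to 0.22 over 3 sets) and Mmp7 (0.19), all secreted or membrane proteases, followed in size. Mmp7 was near the floor on its only set, at 6.34 and 6.53. Of the cytoplasmic partners of syndecans 10 of 12 were measured, 4 higher and 6 lower, with a median of -0.0069. Tiam1, a Rac activator bound by syndecan tails, was at -0.23, the scaffold gene Cask at 0.19, Prkca, the kinase that Sdc4 binds, at 0.18, and Pdcd6ip, which encodes the exosome factor Alix, at 0.09.

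On the brightest probe set of each gene, differences past 1.5-fold with both arrays above the floor were, in these lists, those of Nrp1, Hbegf and Cxcl12. Nrp1, a co-receptor for semaphorins and VEGF that can itself carry a heparan sulphate chain, was at 11.30 in the control and 10.63 with Wnt3a, 1.60-fold lower, and all of its 4 sets were lower (-0.80 to -0.49). The list of other heparan sulphate proteoglycans held 10 genes, of which 6 were measured, 4 higher and 2 lower, with a median of 0.044 and with Nrp1 alone past 1.5-fold. In the same list Col18a1, which encodes collagen XVIII, was 1.23-fold higher, Hspg2 (perlecan) was at 0.14 and Cd44 at -0.08. Hbegf, a heparin-binding EGF-type ligand, was at 9.73 and 10.37, 1.55-fold higher, with 0.64 and 0.71 on its sets. Cxcl12, a chemokine that binds heparan sulphate, was at 10.89 and 10.23, 1.58-fold lower, with -0.66 to -0.19 over 3 sets.

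Met, the HGF receptor, was 1.37-fold lower (-0.45, and -0.72 on its other set), and Fgf6, a muscle FGF, was 1.30-fold higher near the floor (6.16 and 6.54). Of the 21 listed ligands, receptors and matrix partners 16 were measured, 9 higher and 7 lower, with a median of 0.030. Chondroitin and dermatan sulphate proteoglycans, whose chains start from the same linker, were mostly below the floor. Of 11 listed, 4 were measured, 3 higher and 1 lower, with a median of 0.14. With all probe sets of a gene averaged, the median was -0.14, over only Bgn and Cspg4, since the averages of Vcan and Bcan lay below the floor. Vcan (versican) was 1.39-fold higher, with 0.25 to 0.69 over its 3 sets at the floor. Cspg4 (NG2) was at -0.22, Bgn at 0.16 with -0.32 on another set, and Bcan at 0.11. Over the 7 lists together, which were written with earlier results of these data known, 68 of 100 genes were measured. Of these, 2 were past 1.5-fold on the high side and 2 on the low side, against 0.886% and 0.342% of all measured genes. Of the 2 higher ones, Hs3st1 was under the floor in the control and was counted only through the Wnt3a array. With the floor set on the mean of both arrays the higher count was 1. Scaling on the spike-in controls would make the medians of all 7 lists positive, from 0.18 to 0.33, and would leave Nrp1 and Cxcl12 short of 1.5-fold.

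**Figure D3:**
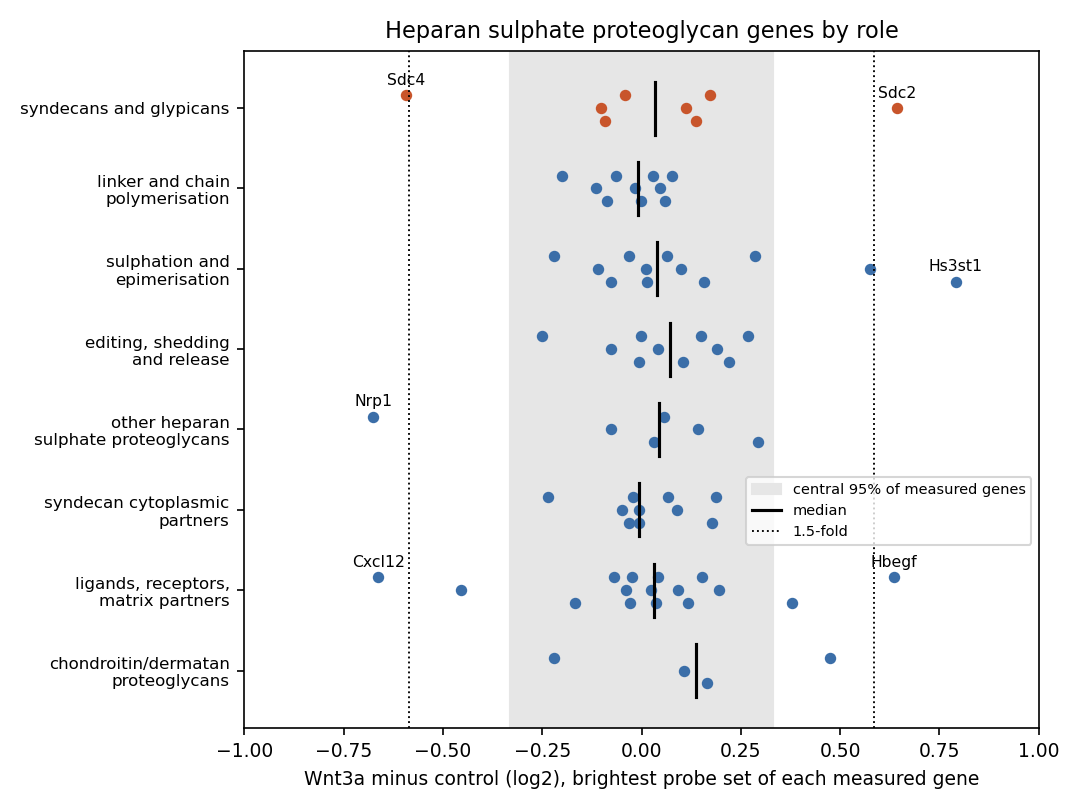
Wnt3a minus control (log2) on the brightest probe set of each measured gene, for the 8 syndecans and glypicans (orange) and the 7 lists of related genes (blue). Black bars are medians, the grey band is the central 95% of all measured genes (-0.33 to 0.33) and dotted lines mark 1.5-fold, past which only Sdc2, Sdc4, Hs3st1, Nrp1, Hbegf and Cxcl12 lie.

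The arrays were those of myoblasts by their markers, and a Wnt target gene was higher on the Wnt3a array. All 8 listed myoblast markers were measured, at 10.11 to 13.41 in the control and 9.61 to 13.28 with Wnt3a, with differences from -0.50 to 0.49. Axin2, a textbook Wnt target, was 12.2-fold higher with Wnt3a, while Lef1, often a target too, was at 8.30 and 8.17. Of the markers of other cell types, 1 of 7 fibroblast, 2 of 5 leukocyte, 2 of 4 endothelial, 1 of 4 Schwann cell, 1 of 3 smooth muscle and 2 of 4 epithelial genes reached the floor on their brightest set. Among these, Col3a1 was at 13.42 and 13.19 and Acta2 at 12.75 and 13.07, and the other 7 were within 2 of the floor. The summed level of the fibroblast list was 13.45 in the control and 13.22 with Wnt3a, and that of the smooth muscle list 12.76 and 13.09. That of the endothelial list was 7.59 and 7.33, with Tek crossing the floor from 6.16 to 5.34, the only marker past 1.5-fold by its measured values. Tek reached the floor only on the control array, so the floor itself fixed its sign. Against the floor Tek was at least 1.12-fold lower. The fibroblast gene Pdgfra (4.77 and 4.72) and the endothelial gene Pecam1 (4.63 and 4.55) were below the floor on both arrays. The part of other cells in the values of Sdc2 and Sdc4 was not tested, and in RNA from whole cultures fewer cells of a type and less RNA per cell cannot be told apart.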

How the data were processed

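Biotin-labelled cRNA of Trizol-extracted total RNA was hybridised to Affymetrix 3′ arrays, per the labels' protocols. The deposited values are intensities, 1 for each probe set on each array, and RMA, affy and limma are named in the submitters' processing notes, without versions or settings. The deposited intensities ran from 7.07 to 37075, a linear scale. The sources used here do not give the step that made them linear. Arrays had been normalized to each other (medians 57.9 and 58.7), so differences are relative to the bulk of genes.

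Values were taken as log2(intensity + 1). A pseudocount shrinks differences of dim probe sets slightly. Of 45101 probe sets, 64 controls were left out and 34945 had 1 gene in GEO's platform annotation. All 9 members matched RefSeq genes by Entrez identifier, with unchanged symbols. The brightest probe set stood for a gene, and thresholds of 1.5-fold and 2-fold were counted. With 1 array per group no test was run. All probe sets of the members are reported, and of each list up to 4 measured genes with the largest differences. Members, lists and thresholds were chosen with earlier results of these data known. Alternatives covered the pseudocount, scaling, probe set summary, floor and threshold. The procedure was tested on simulated data with planted differences of 2-fold or more, in genes above the floor in the control. Random noise was drawn separately for each probe set, its width taken from the differences between these 2 arrays, and no replicate cultures were simulated. That test does not show how well differences near 1.5-fold are recovered. Python 3.11.15, numpy 2.4.6, pandas 2.3.3, statsmodels 0.14.6 and matplotlib 3.10.9 were used.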

Additional observations from a re-analysis of the deposited data

How the results depend on the processing

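With 1 array per group, no replicate could be left out, and no noise between cultures was measured. No paired analysis was possible because each group is 1 array. Sdc2 kept its sign in all 9 settings tried for it, from 0.55 (mean of all probe sets) to 0.83 (spike-in scaling), and was past 1.5-fold in 8. Sdc4 was past it in 5 of 9. It was short of it with the loess trend removed (-0.58), under spike-in scaling (-0.40) and as the mean of all probe sets (-0.20). It reversed to 0.18 when probe sets with _a_, _s_ or _x_ in their identifier were left out, which leaves only its set below the floor. The count of members higher by the threshold, 1, became 0 with the mean of all probe sets and at 2-fold. The count lower, also 1, became 0 under the loess, spike-in, mean, identifier and 2-fold settings. The members' median of 0.035 became 0.22 under spike-in scaling, 0.11 with no floor or with the identifier filter, and -0.042 with a floor of 8. For the 7 lists together, the 2 higher genes became 3 with the loess trend removed or quantile normalization, and 4 under spike-in scaling. They became 5 at the looser fold threshold, 0 at 2-fold, and 1 with the identifier filter, a floor of 8 or a floor on the mean. The 2 lower ones became 3 at the looser fold threshold and 0 under spike-in scaling and at 2-fold. Over all measured genes, spike-in scaling changed the counts past 1.5-fold from 101 higher and 39 lower to 222 and 17. Causes were not tested beyond what each setting itself removes.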
